A study of Mus musculus with 14 samples.

Results

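*Hrk*, *Bbc3*, *Pmaip1*, *Bcl2l11*, *Bid*, *Bax*, *Bak1*, *Bcl2*, *Bcl2l1* and *Mcl1*, the core genes of the mitochondrial death pathway, were followed across cell states, stages and genotypes of the mouse hindbrain. They were chosen by symbol, and all 10 were present among the 31054 features of each of the 14 libraries. Cells labelled by *Atoh1*-driven Cre were sorted and profiled by single-cell RNA sequencing at E14.5, at E18.5 and at postnatal day 5 (P5) to follow pontine nuclei (PN) neurons, which relay cortical input to the cerebellum. Controls were C57BL/6J embryos of genotype Atoh1Cre/+; Rosa lsl-tdTomato/+, and mutants were Atoh1Cre/S193A; Rosa lsl-tdTomato/+, called Atoh1S193A/-. The Cre sequence replaces the *Atoh1* coding region, so both genotypes carried one null allele, and the mutants carried the hypomorphic S193A allele on the other. Each embryonic library came from the hindbrain of 1 embryo, with 3 littermate pairs at E14.5 and 3 at E18.5. The 2 P5 libraries, control only, each pooled microdissected pontine nuclei of 11 to 13 pups. The tdTomato label is permanent and marks every descendant of the *Atoh1* lineage, so the sort also held cerebellar granule cells. Microglia, endothelial and oligodendrocyte lineage cells were found in some libraries too, and why they were present was not tested.

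Members of the Bcl2 family set whether the mitochondrial outer membrane holds or opens. BH3-only proteins (Hrk, Puma from *Bbc3*, Noxa from *Pmaip1*, Bim from *Bcl2l11*, and Bid) act as death signals, Bax and Bak form the pores that release cytochrome c, and Bcl-2, Bcl-xL (from *Bcl2l1*) and Mcl-1 bind and hold back both kinds. In the developing nervous system this pathway removes surplus neurons, and *Hrk* is a BH3-only gene that neurons induce when trophic support is withdrawn.

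*Hrk* lies on chromosome 5 at 118164648 to 118189478, plus strand (GRCm38). Its promoter is shown because *Hrk* is the gene the results turn on and *Atoh1* encodes a basic helix-loop-helix factor of the class that binds E-boxes (CANNTG). The window of 300 bases around the RefSeq start, from 250 before to 50 after it, is chr5:118169514-118169813, plus strand of GRCm38.p6, with each CANNTG in capitals. It lies inside the gene span given above, which is from another annotation (GENCODE) with a start further upstream.
Hrk promoter: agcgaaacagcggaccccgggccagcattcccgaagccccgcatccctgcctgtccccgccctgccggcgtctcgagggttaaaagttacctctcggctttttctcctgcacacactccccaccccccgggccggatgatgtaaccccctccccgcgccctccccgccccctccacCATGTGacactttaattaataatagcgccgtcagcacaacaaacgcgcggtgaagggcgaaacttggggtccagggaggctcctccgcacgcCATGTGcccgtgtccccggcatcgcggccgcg
The window held 2 matches to CANNTG, beginning 74 bases before and 18 bases after the start, where 72.3% of 32851 RefSeq promoters of this length held at least 1 on either strand. It held 0 matches to CAGCTG, which 16.3% of promoters held, and 0 to CAGATG, which 17.2% held. These are letter matches only, with no binding measured.

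After filtering, 80256 of 150188 barcodes were kept, 3248 to 8726 a library, with a median of 12012 to 20917.5 UMIs per cell. Library totals ran from 108239001 to 236964126 UMIs. Clusters were named from marker genes, every such name below stands for cells that resemble the named type ("-like"), and PN-like cells made up 14.6% to 27.6% of a library at E14.5, 7.07% to 17.0% at E18.5 and 63.0% to 66.0% at P5. Between 40.4% and 69.8% of the cells of an E14.5 library matched no name and entered only the sums of all sorted cells, and pair 2 stood apart with 66.7% in its control and 69.8% in its mutant. At E18.5 these were 49.2% to 52.1%, and at P5 29.1% to 30.0%. Over the 91 library pairs, 0.163% to 0.624% of the smaller library's barcodes were shared. S193A is a point allele, so the level of *Atoh1* does not check the genotype labels. Levels below are counts per 1000000 UMIs (CPM) of the summed cells of a state in 1 library. Genotypes were compared on the summed counts with edgeR's quasi-likelihood test, and a gene counted as called when its FDR was under 0.05 and its log2 change larger than 0.25 either way. In sums of all sorted cells, fewer cells of a type and less RNA per cell cannot be told apart.

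*Hrk* in controls was low in granule lineage cells and highest in migrating PN neurons of E18.5. Over 19 embryonic control states and classes its mean level ran from 1.14 CPM in E14.5 choroid plexus cells to 263 CPM in E18.5 migrating neurons, 231-fold apart, the widest range of the 10 genes. The choroid plexus mean rested on 21, 47 and 63 cells in the 3 controls and lay near the floor, so this fold is imprecise. The next lowest levels, after choroid plexus, were 2.10 ± 1.22 CPM in E14.5 cycling granule progenitors, 2.81 ± 0.732 in E14.5 granule neurons, 3.06 ± 0.630 in E18.5 granule neurons and 3.21 ± 0.504 in E18.5 cycling granule progenitors (SD, n = 3 for all embryonic states). These neighbours did not differ beyond their spread. Along the PN lineage at E14.5, *Hrk* was 6.82 ± 5.88 CPM in progenitors, 7.79 ± 4.65 in intermediate progenitors, 12.6 ± 9.72 in migrating neurons-1, 19.6 ± 3.21 in migrating neurons-2 and 33.7 ± 10.8 in differentiated neurons. By mean ± SD, each step lay within the spread of its neighbour except migrating neurons-2 to differentiated neurons, whose ranges only just parted. The states come from the same 3 libraries. Within each of these, *Hrk* rose from migrating neurons-1 to migrating neurons-2 and again to differentiated neurons. The earlier steps differed in direction between libraries.

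At E18.5 the migrating neurons stood apart from the other control states. Their *Hrk* was 227, 212 and 351 CPM in controls 1, 2 and 3. The embryonic PN states ePN1, ePN2 and ePN3 had 21.4 ± 4.74, 42.7 ± 3.91 and 24.1 ± 5.11 CPM, of which ePN1 and ePN3 did not differ beyond their spread. Unipolar brush cells, excitatory interneurons of the cerebellum, had 23.2 ± 2.87 CPM. At P5, *Hrk* was 47.9 and 49.8 CPM in PN1, 65.0 and 67.6 in PN2, 38.0 and 36.0 in PN3, 38.4 and 37.8 in PN4, 63.6 and 58.9 in PN5, and 32.0 and 25.6 in PN6. Of the PN6 cells, 634 came from a cluster with a median of 10042.5 UMIs whose mean marker z of 0.275 only just passed the naming limit of 0.25, and 436 from a clear one. Glia, microglia and oligodendrocyte lineage cells of the same libraries had 2.98 to 4.88 CPM.

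In intermediate progenitors at E14.5, *Hrk* rose in Atoh1S193A/-. Control embryos 1, 2 and 3 had 10.4, 2.43 and 10.5 CPM, from 21, 1 and 14 UMIs in 127, 24 and 96 cells. Mutant embryos 1, 2 and 3 had 107, 112 and 75.8 CPM, from 390, 48 and 221 UMIs in 225, 23 and 164 cells. All 3 mutants lay above all 3 controls, and the lowest mutant was several times the highest control. The log2 change was 3.33 (SE 0.27), a 10.1-fold rise, with an FDR of 3.96e-06 by edgeR. *Hrk* was the only member called of 10 tested there, where 0.103% of 11621 genes were called. With both libraries of pair 2, which held 24 and 23 of these cells, left out, the log2 change was 3.14 and the FDR 7.18e-05, an alternative chosen after seeing the data. Controls 1 and 2 of this stage were counted with an older Cell Ranger than the other libraries, and without them the log2 change was 3.13. That fit had control 3 as its only control, with no spread among controls, so only the size of the change is given. With the PN-like cells divided more finely (resolution 2.0), the state had 17.1, 2.70 and 29.1 CPM in controls against 118, 66.0 and 90.4 in mutants, with a log2 change of 2.50 and an FDR of 0.873, where 0.0487% of genes were called. The call therefore depended on where the state was cut, although the mutants again lay above the controls. Summed granule neuron markers were lower in these mutant cells, 1737 to 2503 CPM against 2518 to 2923 in controls. Summed choroid plexus markers overlapped, 37.3 to 241 CPM against 9.70 to 44.3. The part of either in the result was not tested.

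The same difference was seen in the share of cells holding a *Hrk* UMI. With each cell thinned to 5000 UMIs, 24.3% ± 3.13 of mutant intermediate progenitors held one against 2.38% ± 2.10 of controls. The difference was 22.0 points, all mutants lay above all controls, and p was 0.1 in a two-sided exact permutation test, the smallest that 3 against 3 libraries allow. Unthinned, the shares were 32.7% and 6.00%. Glial cells at E14.5, given for comparison, had thinned shares of 1.94% ± 0.755 in mutants and 0.844% ± 1.46 in controls. Control intermediate progenitors, at 0% to 3.97%, overlapped control glia, at 0% to 2.53%, while the mutant intermediate progenitors lay above all glia. Free RNA was not measured, and its part in the low shares was not tested.

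**Figure D1:**
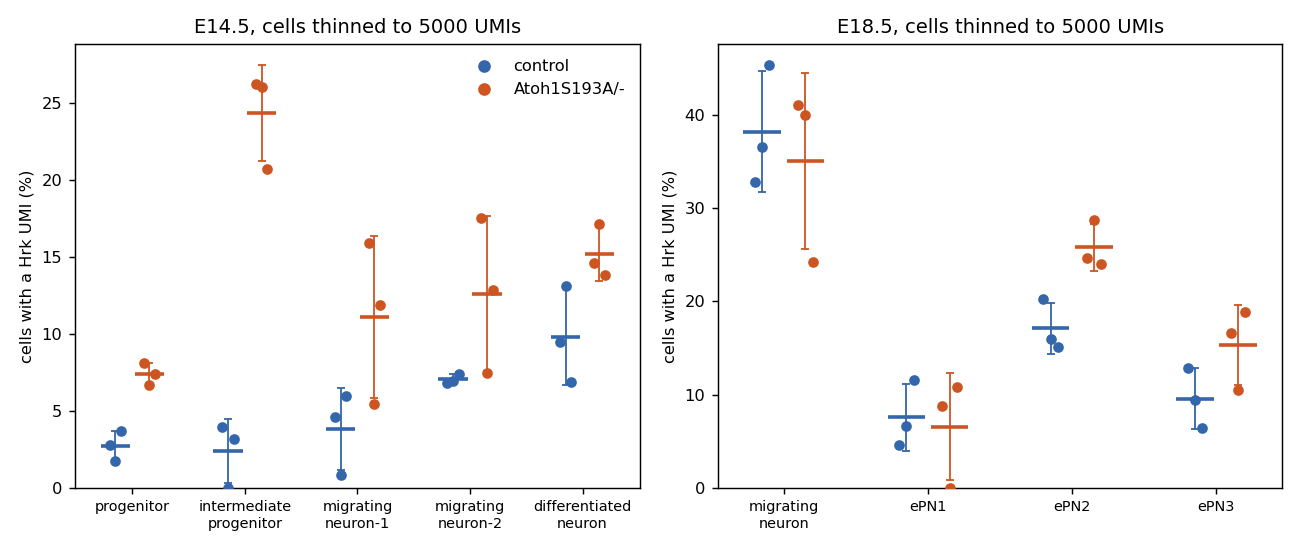
Share of cells with at least 1 *Hrk* UMI (percent, each cell thinned to 5000 UMIs) in each PN-like state, by library; points are libraries and bars the mean ± SD of 3. The intermediate progenitors of the 3 mutants lie between 20.7% and 26.2%, and those of the controls between 0% and 3.97%.

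In progenitors, *Hrk* was 13.6, 3.80 and 3.06 CPM in controls and 26.7, 33.1 and 26.9 in mutants. The groups did not overlap, and control 1 was the highest control. The log2 change was 2.16 (SE 0.38) with an FDR of 0.231, so *Hrk* was not called, and the only call among 13781 genes (0.00726%) was another gene. When littermates were blocked together the change was 2.20 with an FDR of 0.0284, where 1.00% of genes were called. Without control 1 it was 3.00 with an FDR of 0.0011, where 0.0146% were. Of the 4 progenitor clusters, cluster 1 had 33.0, 0 and 4.82 CPM in controls and 31.0, 8.31 and 30.7 in mutants, and there control 1 was the highest library, from 16 UMIs. Cluster 4 had 4.96, 5.51 and 3.24 against 17.1, 30.7 and 9.32 CPM, and cluster 12 had 3.81, 5.36 and 2.02 against 29.7, 66.9 and 26.7, both without overlap. Cluster 17 had 0 *Hrk* UMIs in all controls, in 4 to 10 cells a library, against 39.6 and 75.6 CPM in mutants 1 and 3, and no cell of mutant 2. Thinned shares of cells with a UMI were 7.38% ± 0.707 in mutants and 2.72% ± 0.976 in controls (exact permutation p = 0.1), and 17.3% and 6.34% unthinned. Progenitors made up 4.54% to 7.87% of the mutant libraries and 1.29% to 2.22% of the control libraries, so the mutant values rest on more cells. Summed choroid plexus markers were also higher in the mutant progenitors, 37.1 to 218 CPM against 15.2 to 36.7. The dissociation response list, of immediate early and heat shock genes, had a median log2 change of 0.42 over 9 genes in progenitors. The part of either in the *Hrk* values was not tested.

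The 2 groups of migrating neurons and the differentiated neurons gave smaller or less even differences. In migrating neurons-1, *Hrk* was 16.1, 1.57 and 20.02 CPM in controls and 67.7, 30.7 and 43.4 in mutants. The mutants lay above the controls, the log2 change was 1.91 (SE 0.82) and the FDR 0.997, and 0.0857% of 12833 genes were called. In migrating neurons-2 the values were 19.5, 16.4 and 22.9 against 65.3, 19.9 and 48.6 CPM, and mutant 2 overlapped the controls. The log2 change was 1.13 with an FDR of 1 where 0% of genes were called, and without mutant 2 it was 1.47 with an FDR of 0.00134, where 0.0305% were. In differentiated neurons the groups overlapped, at 27.6, 46.2 and 27.2 against 49.8, 53.3 and 37.4 CPM, with a log2 change of 0.42 (SE 0.24) and an FDR of 1 where 0% of genes were called. The thinned shares of cells with a UMI differed by 7.31 points in migrating neurons-1 (p = 0.2), 5.57 in migrating neurons-2 (p = 0.1) and 5.38 in differentiated neurons (p = 0.1) by the exact permutation test.

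**Figure D2:**
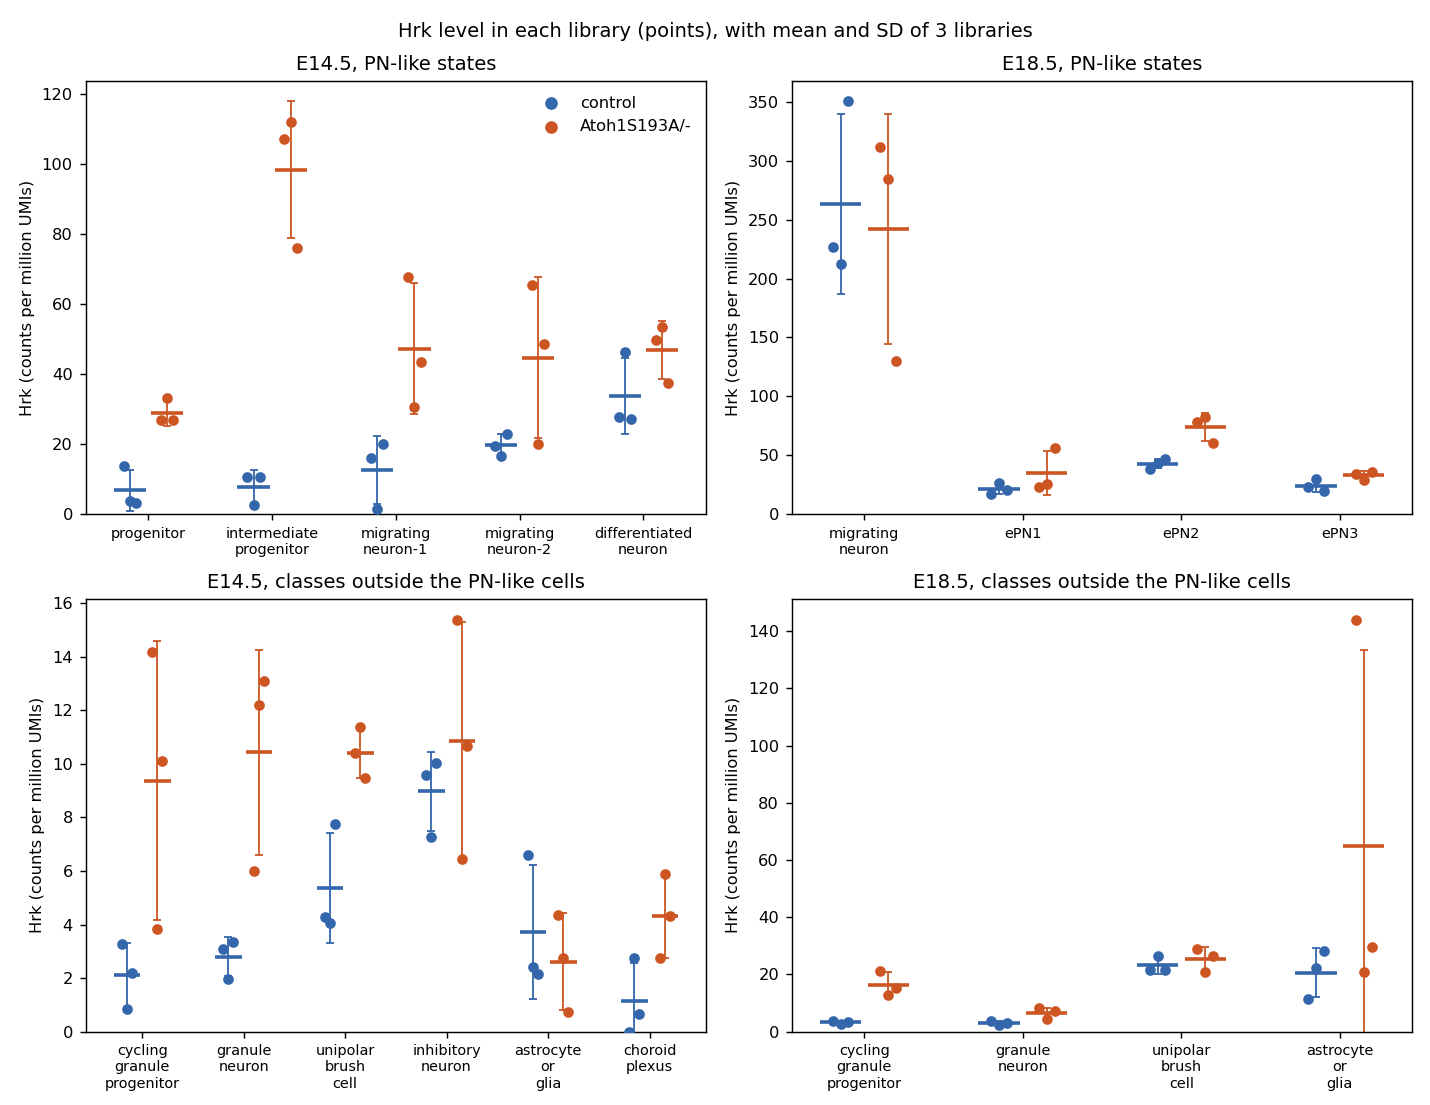
*Hrk* level (CPM) in each library by state or class and genotype, at E14.5 and E18.5 for PN-like states and for classes outside them; points are embryos and bars the mean ± SD of 3. Mutant points stand above control points in intermediate progenitors and in cycling granule progenitors of both stages, and E18.5 migrating neurons are high in both genotypes.

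Outside the PN lineage *Hrk* rose in the cycling granule progenitors of E18.5, the dividing precursors of cerebellar granule neurons. Controls 1, 2 and 3 had 3.69, 2.68 and 3.25 CPM, from 99, 52 and 57 UMIs. Mutants 1, 2 and 3 had 21.1, 12.7 and 15.2 CPM, from 697, 233 and 180 UMIs. Every mutant was above every control, with means of 16.4 ± 4.34 and 3.21 ± 0.504 CPM. The log2 change was 2.34 (SE 0.18), a 5.07-fold rise, with an FDR of 0.000261 by edgeR, and *Hrk* was the only member called of 10 where 0.542% of 15687 genes were called. The call held under all 12 settings, with log2 changes of 2.12 to 2.48.

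The rise appeared in each of the 3 clusters that made up this class. Cluster 0 had 3.45, 2.69 and 2.52 CPM in controls and 22.6, 12.7 and 13.5 in mutants. Cluster 2 had 2.67, 3.88 and 3.35 against 22.5, 12.6 and 22.4 CPM. Cluster 8 had 5.04, 1.16 and 4.09 against 18.2, 12.8 and 12.1 CPM, and no cluster's groups overlapped. Cells with a *Hrk* UMI were 6.54% ± 1.53 of mutant and 1.68% ± 0.155 of control cells when thinned (exact permutation p = 0.1), and 16.5% and 5.54% unthinned.

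The E14.5 cycling granule progenitors gave 3.27, 0.832 and 2.21 CPM in controls and 14.2, 3.85 and 10.1 in mutants. The groups parted, but mutant 2 was close to control 1. The log2 change was 2.22 (SE 0.48) with an FDR of 0.397 where 0.00701% of genes were called, and 2.15 with an FDR of 2.8e-05 under the littermate block, where 1.59% were called. E14.5 granule neurons had 3.09, 1.97 and 3.35 against 6.02, 12.2 and 13.1 CPM, a log2 change of 1.77 (SE 0.36). Its FDR was 1 where 0% of genes were called, and 0.0117 under the block, where 0.156% were. E18.5 granule neurons had 3.71, 2.45 and 3.01 against 8.12, 4.55 and 7.09 CPM, a log2 change of 1.08 (SE 0.25). Its FDR was 0.532 where 0.007% were called, and 0.0082 under the block, where 0.574% were. In both granule neuron classes the groups did not overlap, although the levels in them stayed low.

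Other E14.5 classes were tested the same way. Unipolar brush cells had 4.29, 4.07 and 7.75 CPM of *Hrk* in controls and 10.4, 11.4 and 9.48 in mutants, a log2 change of 0.88 with an FDR of 0.836 where 0% of genes were called. This E14.5 class joined unlike clusters, of 1095 cells led by *Ccnd2*, *Barx2* and *Cartpt* and 998 led by *Calb2*, *Nefl* and *Nefm*. Its values are therefore of a mixture, and the name is loose. Choroid plexus cells had 0, 2.75 and 0.668 against 2.76, 5.88 and 4.33 CPM, a log2 change of 1.73 (SE 0.73) that was not called where 0.155% of genes were. Inhibitory neurons had 9.60, 7.27 and 10.0 against 15.4, 6.46 and 10.7 CPM, and glia had 6.61, 2.40 and 2.16 against 4.35, 2.76 and 0.738, both overlapping and both in comparisons with 0% of genes called. The first pair of classes had mutants above controls, in choroid plexus cells from 0 to 43 UMIs a library, and the second pair did not.

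At E18.5 the PN states differed less than the E14.5 intermediate progenitors. In ePN2, *Hrk* was 38.6, 43.2 and 46.4 CPM in controls and 78.5, 82.5 and 60.5 in mutants. All mutants lay above all controls, and the log2 change was 0.72 (SE 0.13) with an FDR of 0.11 where 0% of genes were called. It was 0.70 with an FDR of 0.000878 under the littermate block, where 0.139% were called, and 0.84 with an FDR of 0.0332 without mutant 3, where 0.00791% were. Thinned shares in ePN2 were 25.8% ± 2.53 and 17.1% ± 2.76 (exact permutation p = 0.1), while the unthinned shares of 48.9% and 44.2% were closer and overlapped.

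In ePN1 *Hrk* was 17.2, 26.5 and 20.6 CPM in controls and 23.2, 25.2 and 55.9 in mutants, a log2 change of 0.87 (SE 0.29) not called where 0% of genes were. The ePN1 cells numbered 66, 76 and 174 in controls and only 34, 15 and 47 in mutants. Mutant 3 alone was above the controls there, and the thinned shares, 6.56% and 7.56%, went the other way, so no order is read from them. In ePN3 it was 22.7, 29.7 and 19.8 against 34.0, 29.3 and 35.9 CPM, a log2 change of 0.53 (SE 0.18) not called where 0.00784% were. The migrating neurons, the highest state, had 227, 212 and 351 against 312, 285 and 130 CPM, a log2 change of -0.13 (SE 0.42) where 0.0485% were called. Mutant 3 was the lowest of the 6 there and the groups overlapped.

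Unipolar brush cells at E18.5 had 21.6, 26.5 and 21.4 CPM of *Hrk* in controls and 29.0, 20.7 and 26.6 in mutants, a log2 change of 0.18 where 0.0497% of genes were called. Glia had 11.4, 22.1 and 28.3 against 144, 20.9 and 29.8 CPM, where 0% were called. These came from 21, 29 and 74 control cells and 86, 13 and 86 mutant cells. The high glial value was 1 library, mutant 1, with 164 of the UMIs.

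Across the 19 states and classes, the *Hrk* log2 change was above 0 in 17 and below 0 in 2. The 3 mutants lay above the 3 controls in 10 of them, below in 0, and overlapped in 9. In a single comparison 3.48% to 7.14% of the genes tested had all mutants above all controls. Of 9855 genes tested in all 19, the median number of such comparisons was 1, and 0.0203% had at least as many as *Hrk*. *Hrk* was called in 2 of the 19 without the littermate block. The block also called it in E14.5 progenitors, cycling granule progenitors and granule neurons, and in ePN2 and E18.5 granule neurons. In those fits 0.139% to 1.59% of all genes were called. The 19 states and classes share the same 12 embryos and are not independent of each other. In the sum of all sorted cells *Hrk* was 14.2, 16.3 and 16.3 CPM against 29.8, 19.0 and 23.6 at E14.5, a log2 change of 0.58 (SE 0.18) with an FDR of 0.384. At E18.5 it was 13.96, 15.1 and 21.8 against 28.9, 21.3 and 22.8 CPM, a log2 change of 0.51 (SE 0.18) with an FDR of 1. The mutants were above the controls at E14.5, and at E18.5 mutant 2 lay below control 3. The share of all genes that parted in these sums was not counted.

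**Figure D3:**
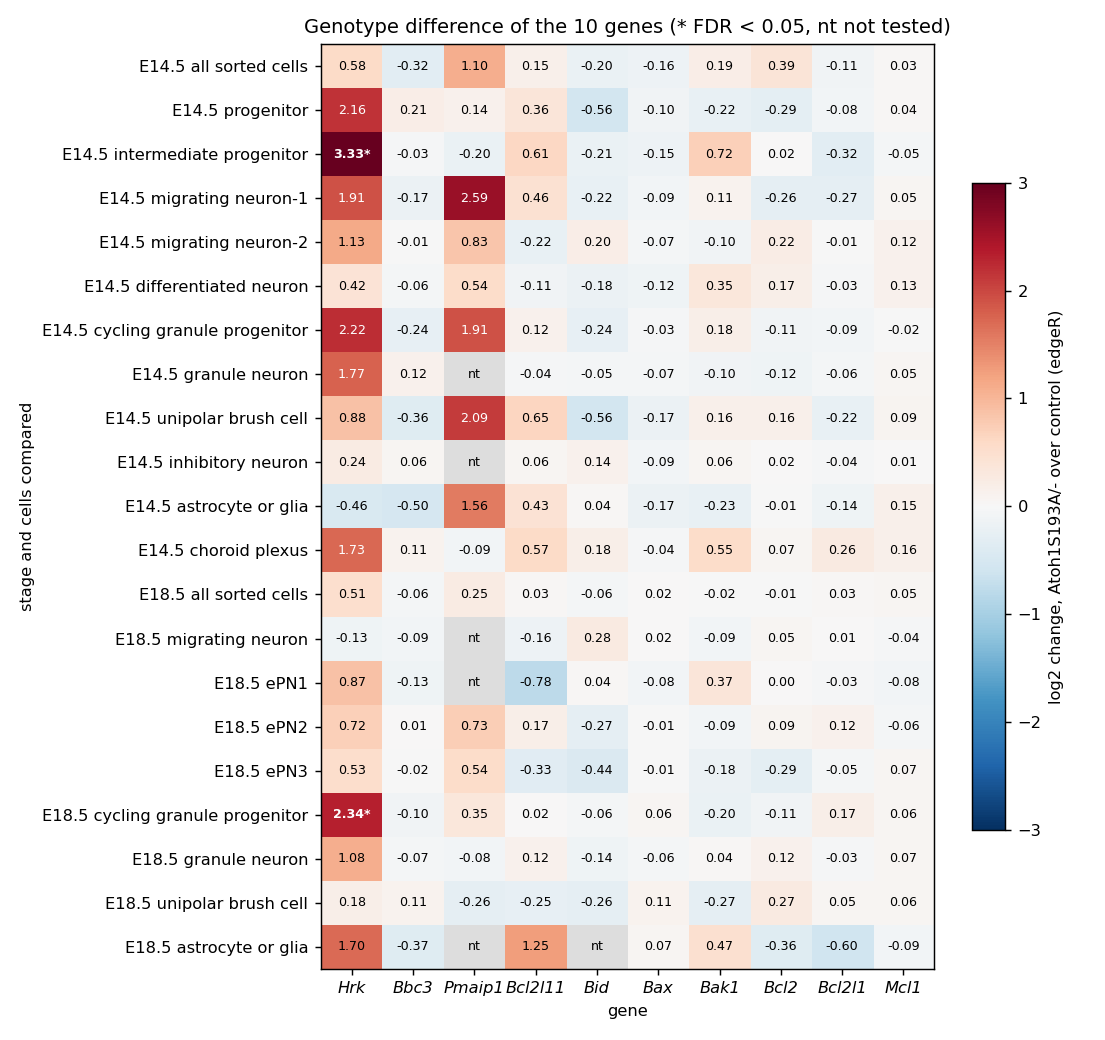
edgeR log2 change, Atoh1S193A/- minus control, of the 10 genes in 21 comparisons, the 2 sums of all sorted cells and 19 states and classes; an asterisk marks an FDR under 0.05 and nt a gene not tested for low counts. Both asterisks are on *Hrk*, in E14.5 intermediate progenitors (3.33) and E18.5 cycling granule progenitors (2.34).

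Among the other BH3-only genes, *Bbc3* (Puma, a target of p53) was lower in mutants in the sum of all sorted E14.5 cells without being called. It was 40.0, 40.1 and 42.6 CPM in controls and 34.0, 34.5 and 33.0 in mutants. The groups did not overlap, and the log2 change was -0.32 (SE 0.08) with an FDR of 0.358. The share of all genes that parted in this sum was not counted, here or for the members below. No member was called among the 10 there, and 4 had an unadjusted p under 0.05, as did 11.0% of all 20079 genes, of which 0% were called. Under the littermate block 3 members were called, *Bbc3* (-0.32, FDR 0.0119), *Pmaip1* (1.12, FDR 0.00674) and *Bcl2* (0.39, FDR 0.00623), where 13.0% of genes were. By DESeq2 *Bbc3* was the only member called (-0.34, FDR 0.0227), where 2.45% of genes were called. The choroid plexus share of these libraries also differed, 0.65% to 0.96% in controls and 1.07% to 5.52% in mutants, and its part in these values was not tested.

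Within states and classes *Bbc3* was called nowhere. E14.5 migrating neurons-2 had 53.2, 53.4 and 63.7 against 58.9, 54.6 and 60.6 CPM, and progenitors had 15.6, 10.3 and 10.4 against 14.48, 12.2 and 15.4. Both overlapped. In 19 comparisons its log2 change ran from -0.50 to 0.21, and the groups overlapped in 18. E14.5 granule neurons, where 6.13% of genes had all mutants above all controls, had 56.1, 49.4 and 54.7 against 57.1, 60.4 and 61.6 CPM, a log2 change of 0.12, with the mutants above. Over the embryonic control states it was lowest in E14.5 glia, at 10.1 CPM, and highest in ePN1, at 75.5, and it was the member whose control pattern was most like that of *Hrk*.

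*Pmaip1* (Noxa, which mainly neutralises Mcl-1) was near the detection limit in PN-like cells. Among the embryonic control states and classes it was highest in granule lineage cells at E18.5. Over the 19 embryonic control states and classes its mean went from 0.226 CPM in E14.5 unipolar brush cells to 23.2 in E18.5 granule neurons, 103-fold apart, a ratio over a level near the floor. In all sorted E14.5 cells it was 1.63, 0.718 and 0.983 CPM in controls and 3.35, 1.97 and 2.00 in mutants, without overlap, a log2 change of 1.10 (SE 0.36) and an FDR of 0.396. E14.5 cycling granule progenitors had 2.18, 1.04 and 1.41 against 8.63, 3.50 and 4.57 CPM, again without overlap. Their log2 change was 1.91 (SE 0.40) with an FDR of 0.288, where 0.00701% of genes were called. It was 1.80 with an FDR of 0.00127 under the littermate block, which called *Hrk*, *Pmaip1* and 1.59% of all genes there. The E18.5 cycling granule progenitors had 14.6, 12.5 and 17.6 against 16.9, 19.3 and 21.5 CPM, overlapping, with an FDR of 0.605, and 0.0175 under the block (log2 change 0.36), where 2.61% of genes were called.

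In migrating neurons-1, *Pmaip1* had 1, 2 and 2 UMIs in the control libraries and 3, 29 and 7 in the mutant libraries. These were 0.316, 0.448 and 0.616 against 1.26, 5.66 and 1.45 CPM. The log2 change of 2.59 had an FDR of 0.619, and 0.012 under the block, where 1.94% of genes were called. Most of the mutant UMIs came from mutant 2. At P5, microglia had 36.2 and 48.2 CPM of *Pmaip1* and PN-like cells 0.188 and 0.298.

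*Bcl2l11* (Bim) was lower in the ePN1, ePN2 and ePN3 states of E18.5 than in the PN-lineage states of E14.5 in controls, but not in the migrating neurons of E18.5, which had 36.1 CPM. Its control mean was 36.1 CPM in E14.5 migrating neurons-2 and 3.12 in ePN3, and PN-like cells at P5 had 1.22 and 1.18 CPM. In intermediate progenitors, where *Hrk* rose, *Bcl2l11* was 23.4, 14.6 and 33.8 CPM in controls and 44.4, 32.6 and 36.7 in mutants, overlapping, with a log2 change of 0.61 (SE 0.25) and an FDR of 0.917. Migrating neurons-1 had 25.0, 22.4 and 23.7 against 34.9, 36.5 and 28.5 CPM, and progenitors 29.2, 22.0 and 23.8 against 33.6, 32.4 and 31.5. The mutants lay above the controls in both, with FDRs of 0.72 and 1. Unipolar brush cells at E14.5 had 15.2, 12.9 and 13.5 against 24.6, 22.5 and 20.2 CPM, a log2 change of 0.65 (SE 0.17) with an FDR of 0.836. Under the littermate block it was 0.64 with an FDR of 0.0159, in a comparison where the block called 8.67% of genes.

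*Bid*, which caspase-8 cleaves to link death receptors to mitochondria, was called in no genotype comparison without the block. It was 8.84, 7.22 and 7.95 CPM in control progenitors and 5.18, 6.80 and 4.68 in mutant progenitors, a log2 change of -0.56 (SE 0.29) with an FDR of 1. The mutants lay below the controls. In E14.5 unipolar brush cells it was 24.5, 18.46 and 21.2 against 20.1, 11.0 and 13.7 CPM, with a log2 change of -0.59 and an FDR of 0.0324 under the block alone. Mutants were below controls in 4 of 18 comparisons of *Bid* and above in 0, and in a single comparison 1.74% to 6.23% of the genes tested had all mutants below all controls. How many genes lay below in as many comparisons was not counted. Its embryonic control mean ran from 0.675 CPM in E18.5 glia to 21.4 in E14.5 unipolar brush cells.

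*Bax* varied least of the 10 over the embryonic control states. It had means between 183 CPM in E18.5 glia and 315 in E14.5 differentiated neurons, 1.72-fold apart. In intermediate progenitors it was 281, 238 and 284 CPM in controls and 242, 231 and 257 in mutants, and in E18.5 cycling granule progenitors 207, 202 and 188 against 220, 217 and 190. Both overlapped. Over 19 comparisons its log2 change ran from -0.17 to 0.11, below 0 in all 11 at E14.5 and in 4 of 8 at E18.5, and none was called.

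*Bak1* had embryonic control means of 6.65 CPM in E14.5 migrating neurons-1 to 27.8 in E14.5 glia. In intermediate progenitors it was 8.94, 4.85 and 9.01 CPM in controls and 11.2, 23.3 and 14.1 in mutants, without overlap, a log2 change of 0.72 (SE 0.35) and an FDR of 1. In E18.5 cycling granule progenitors it was 14.4, 12.4 and 12.4 against 12.1, 11.1 and 11.2 CPM, with mutants below controls and an FDR of 0.74. The direction thus differed between the states in which *Hrk* rose, and neither value was called.

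Of the guardians, *Bcl2* was the most state-dependent. Its control mean was 13.9 CPM in E14.5 differentiated neurons, 105 in E14.5 choroid plexus and 197 in E18.5 glia. In all sorted E14.5 cells it was 30.3, 28.2 and 31.0 CPM in controls and 40.9, 36.3 and 44.5 in mutants, without overlap, a log2 change of 0.39 (SE 0.11) with an FDR of 0.366. Within the 19 states and classes the groups overlapped in all 19, with log2 changes of -0.36 to 0.27. Progenitors had 58.5, 59.3 and 45.2 against 40.2, 38.5 and 57.0 CPM. Choroid plexus cells and progenitors, which had high *Bcl2*, were also more frequent in the mutant libraries, and the part of this in the sum of all sorted cells was not tested.

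*Bcl2l1* (Bcl-xL, which immature neurons need to survive) had embryonic control means from 34.4 CPM in E14.5 glia to 113 in E18.5 granule neurons. In E18.5 cycling granule progenitors it was 55.7, 49.6 and 54.2 CPM in controls and 59.8, 57.8 and 62.8 in mutants, without overlap, a log2 change of 0.17 (SE 0.07) with an FDR of 0.574. In intermediate progenitors it was 42.7, 29.1 and 34.5 against 28.0, 32.6 and 30.9 CPM, overlapping. Its log2 change was below 0 in 14 of 19 comparisons and none was called.

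*Mcl1*, whose protein turns over fast, was 125, 104 and 102 CPM in controls and 117, 127 and 105 in mutants in all sorted E14.5 cells, overlapping. In 19 comparisons its log2 change ran from -0.09 to 0.16 and the groups overlapped in all 19. *Mcl1* responds to tissue dissociation, and the dissociation response list was measured beside it. Its median log2 change in all sorted E14.5 cells was 0.65 over 9 genes, with *Junb* at 0.65 and *Fosb* at 0.76, none called without the block. In intermediate progenitors the median was 0.36 over 6 of them, and in E18.5 cycling granule progenitors 0.06 over 9, and their part in the *Hrk* values was not tested.

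No member other than *Hrk* was called in any genotype comparison by edgeR without the block and with the filter on low counts. Without that filter *Pmaip1* was called in E14.5 cycling granule progenitors (log2 change 1.91, FDR 0.00231), where 0.198% of genes were called, and in migrating neurons-1 (2.59, FDR 0.0385), where 0.479% were. *Hrk* was called without it in progenitors, where 0.279% of genes were, in E14.5 and E18.5 granule neurons, where 0.0424% and 0.223% were, and in ePN2, where 0.0647% were. DESeq2 called *Hrk* in progenitors (2.13, FDR 6.56e-05) and E14.5 cycling granule progenitors (2.18, FDR 0.00454), beside 0.0943% and 0.175% of genes. The median log2 change of the 10 was -0.04 in intermediate progenitors, beside 0.00 over all genes tested, and 0.04 in E18.5 cycling granule progenitors, beside -0.00. Members with an unadjusted p under 0.05 numbered 2 and 3 in those comparisons, beside 4.46% and 6.97% of all genes, and in the others from 0 to 4. In the sum of all sorted E18.5 cells 1 of 10 had such a p, beside 2.14% of all genes, with none called by edgeR or by DESeq2 and 0% of 19391 genes called by edgeR. A test of whether the genotype difference itself differed between E14.5 and E18.5 called 0 members by edgeR and 0 by DESeq2, with 2 at an unadjusted p under 0.05 in edgeR, beside 6.63% of all genes. It called 0% of 21212 genes. For *Hrk* that interaction was -0.07 (SE 0.28, FDR 0.983).

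The stage changed 3 members in control embryos. *Pmaip1* rose from 1.63, 0.718 and 0.983 CPM in all sorted cells at E14.5 to 12.1, 10.8 and 10.1 at E18.5, a log2 change of 3.24 (SE 0.27), 9.47-fold, with an FDR of 0.000204 by edgeR. *Bbc3* fell from 40.0, 40.1 and 42.6 to 34.4, 32.6 and 35.9 CPM (log2 change -0.36, SE 0.09, FDR 0.0116). *Bax* fell from 272, 261 and 283 to 233, 233 and 215 CPM (log2 change -0.36, SE 0.08, FDR 0.01). No values overlapped between stages for these genes. Summed markers of other cells moved with the stage. In all sorted control cells granule neuron markers were 1330 to 1979 CPM at E14.5 and 3287 to 3432 at E18.5, cycling granule progenitor markers 1034 to 1579 and 2542 to 2813, and choroid plexus markers 769 to 2588 and 4.84 to 9.42, and their part in these changes was not tested. With the E14.5 controls of the older Cell Ranger left out, control 3 was alone at that stage, so only the size of the changes is given. The log2 changes were then 3.33 for *Pmaip1*, -0.46 for *Bbc3* and -0.46 for *Bax*. The share of genes called was 40.9% of 19752, so 3 of 10 was no more than that background. The calls of *Bbc3* and *Bax* each depended on single libraries, with FDRs of 0.0602 and 0.0513 without E18.5 control 1. For *Bbc3* the FDR was 0.0806 without control 2, and for *Bax* 0.0524 without control 3. *Hrk* was 14.2, 16.3 and 16.3 CPM at E14.5 and 13.96, 15.1 and 21.8 at E18.5 (log2 change 0.02, SE 0.17, FDR 0.945).

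The P5 libraries, from pontine tissue alone and with no mutant, differ from the embryonic ones in dissection and are given side by side. *Hrk* was 38.1 and 34.6 CPM in all sorted P5 cells, *Bbc3* 62.3 and 65.1, and *Bid* 12.9 and 15.9. *Pmaip1* was 1.68 and 2.26 CPM and *Bcl2l11* 3.71 and 5.42, and *Bcl2l11* reached 42.4 and 64.4 CPM in microglia. *Bax* was 215 and 231 CPM and *Bak1* 10.7 and 11.4. *Bcl2* was 63.1 and 56.6 CPM, with 110 and 101 in PN2 and 36.7 and 35.4 in PN3. *Bcl2l1* was 34.4 and 33.2 CPM, and *Mcl1* 80.2 and 90.9, with 51.2 and 48.6 in PN-like cells and 639 and 876 in microglia. Over the 6 PN states of P5, *Bcl2* and *Hrk* ranged widely while *Bax* stayed between 202 and 243 CPM.

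**Figure D4:**
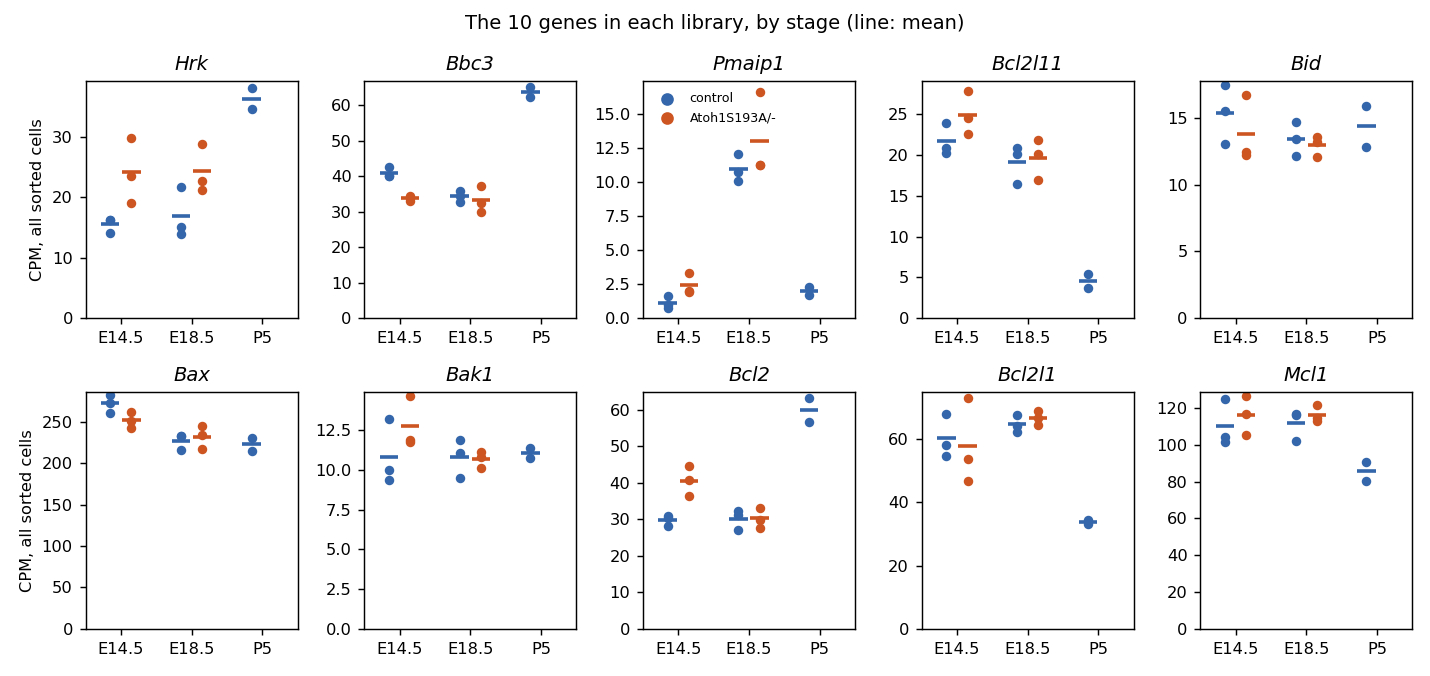
Level (CPM) of each of the 10 genes in all sorted cells of every library at E14.5, E18.5 and P5, by genotype; points are libraries. *Pmaip1* is between 0.718 and 1.63 CPM in the E14.5 controls, between 10.1 and 12.1 in the E18.5 controls and at 1.68 and 2.26 in the P5 libraries, which hold pontine tissue only.

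Among the 9082 genes with a mean level of at least 10 CPM over the 19 control states and classes, those whose log2 level was most correlated with *Hrk* were *Acvr1* (r = 0.871), *March8* (0.871), *Dock4* (0.864), *Arnt2* (0.859) and *Acadsb* (0.855). Of the other members *Bbc3* had 0.627, *Bcl2l1* 0.280, *Bax* 0.225 and *Bid* 0.095, and *Pmaip1* was lowest with -0.298. The 19 points share 6 libraries and their sequencing depth, so these values describe likeness only.

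Around the 10 members, 70 further genes of the cell death pathway were measured, covering other Bcl2 relatives, caspases and the apoptosome, inhibitors of apoptosis, p53 targets, stress signalling and the dissociation response. Over the 21 genotype comparisons edgeR called 0 of them without the block, with 0 to 9 in a comparison at an unadjusted p under 0.05, and DESeq2 called 1, *Cdkn1a* in intermediate progenitors (log2 change 1.15, FDR 0.0286), where it called 0.155% of all genes. The 9 were of 68 tested in all sorted E14.5 cells, where 11.0% of all genes had such a p. In intermediate progenitors 55 were tested and 6 had an unadjusted p under 0.05, beside 4.46% of all genes. The lowest p values were those of *Pak3*, a p21-activated kinase, with a log2 change of 0.88 (SE 0.19, FDR 0.138), of *Cdkn1a*, the p53-induced cell cycle inhibitor, with 1.13 (FDR 0.859), and of *Diablo*, which relieves caspase inhibition, with -0.43. *Pak3* and *Dap* were named by the study from these same libraries, which makes them no independent evidence, and *Dap* had a log2 change of 0.36 with an FDR of 1. Under the littermate block *Pak3* (0.81, FDR 3.55e-05) and *Cdkn1a* (1.04, FDR 5.47e-07) were called. In that fit 1.59% of all genes were called. In all sorted E14.5 cells the block called 10 of 68 up and 1 down, a share near the 13.0% of all genes it called. Of the 10, 5 were from the dissociation response list, among them *Egr1* with 0.93 (FDR 0.00376).

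The block called further genes of the 70 in 7 other comparisons. In progenitors these were *Egr1* (log2 change 0.78, FDR 8.22e-09) and *Fos* (0.47, FDR 0.00109), and in migrating neurons-1 *Egr1* (1.10, FDR 3.14e-07) and *Ier2* (0.33, FDR 0.00319), all immediate early genes. E14.5 unipolar brush cells had *Bmf*, another BH3-only gene, with 1.07 (FDR 0.00514), *Ier2* with 0.43 (FDR 0.0158) and *Cycs*, which encodes cytochrome c, with -0.44 (FDR 0.0165). E14.5 cycling granule progenitors had *Jun* with -0.27 (FDR 0.0382), ePN2 had *Egr1* with 0.87 (FDR 0.0269), and E18.5 cycling granule progenitors had *Pak3* with 0.32 (FDR 0.00741). Of all genes the block called 1.00% in progenitors, 1.94% in migrating neurons-1, 1.59% in E14.5 cycling granule progenitors, 0.139% in ePN2 and 2.61% in E18.5 cycling granule progenitors. In unipolar brush cells it called 8.67%, so 3 of 65 was no more than that background. Nor did 1 of 66 in E14.5 cycling granule progenitors or 1 of 67 in those of E18.5 exceed theirs. Of the 70, the block tested 64 in progenitors, 60 in migrating neurons-1 and 57 in ePN2. In choroid plexus cells, where the block called 1.04% of all genes, *Fosb* (0.93) and *Junb* (0.60) rose and the heat shock genes *Hspa1a* (-2.94) and *Hspa1b* (-2.32) fell.

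In E18.5 cycling granule progenitors 67 of the 70 were tested and 3 had an unadjusted p under 0.05, no larger a share than the 6.97% of all genes. The lowest p values were those of *Pak3* with 0.33 (FDR 0.115), *Gadd45a* with 0.18 and *Bik* with -0.59. In progenitors 2 of 64 had such a p, beside 3.31% of all genes, and the leading values were 0.74 for *Junb*, -0.24 for *Cycs* and -0.37 for *Bcl2l12*. Between stages in controls 16 of 69 tested rose and 13 fell. By lowest FDR these were *Eda2r*, a p53-induced death receptor, with 2.65 (FDR 0.000201), *Foxo3*, a transcription factor that can switch on *Bcl2l11*, with 1.36 (FDR 0.000243), *Bcl2l13* with 1.13, *Casp6* with -1.29 and *Bcl2l15* with 2.12. At 29 of 69, that share too lay near the background of that comparison.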

How the data were processed

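Single-cell RNA was captured with 10x Genomics 3′ chemistry from 14 libraries. The deposited matrices hold raw UMI counts per gene and barcode, made by the authors with Cell Ranger 5.0.1 on mm10 per the submitters' processing notes, while the file headers name 3.1.0 for E14.5 controls 1 and 2 and 5.0.1 for the other 12. Barcodes with at least 1000 genes and under 5% mitochondrial UMIs were kept, and the 7.5% with the highest Scrublet doublet score in each library were removed. Cells were clustered per stage with scanpy 1.11.5 (2000 variable genes, 30 components, 15 neighbors, Leiden resolution 1.0, leidenalg 0.10.2, Python 3.11.15), and named from marker lists, with the limits for naming chosen once cluster means were known. Raw counts were summed per library and state with at least 10 cells, and genes with at least 15 UMIs over the comparison were tested with edgeR 4.0.16 (quasi-likelihood, TMM scaling, Benjamini-Hochberg FDR, R 4.3.3). SE is the log2 change divided by the root of the F statistic. DESeq2 1.42.0, other filters and scalings, a finer clustering and each library left out were alternatives, and the fitting code was tested on simulated data. Shares of cells were compared by exact permutation with scipy 1.17.1. Counting intervals are not given, and spread between libraries covers biological and technical error together.

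Per the study's methods each mutant embryo had a littermate control, and libraries with the same number were taken as that pair. The sample titles do not say that equal numbers mark littermates. Deviations of same-numbered libraries from their group means correlated at 0.506, 0.687 and 0.643 for E14.5 and at 0.563, 0.539 and 0.806 for E18.5. Each was over the limit of 0.1 and the highest for its control. At E18.5, control 1 with mutant 2 (0.280) and control 2 with mutant 1 (0.218) also passed that limit, so it did not by itself single out pairs. The numbers were used as pairs in the block only. The paired result is given where it changes the call of a member or a wider gene. The 10 members, the wider lists and the tests were chosen with earlier results of these data known, and *Hrk*, *Pak3* and *Dap* had been singled out by the study from these libraries, so none is independent evidence. Named genes are all members, the wider genes called (at most 5 a comparison by FDR, otherwise the 3 of lowest p) and the 5 nearest to *Hrk* in pattern. The single dissociation response genes and DESeq2 calls given beside them, and single clusters, were chosen after their values were seen. UMIs of *Bcl2*, *Bid* and *Bax*, which overlap other annotated genes, are uncertain to that extent. Promoters are RefSeq windows on GRCm38.p6, found for 9 of 10 members (14 windows), and only that of *Hrk* is shown. Levels are 3′ counts and are compared within a gene, not between genes. States with fewer than 3 libraries a genotype past the cell minimum were not tested.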

Additional observations from a re-analysis of the deposited data

How the results depend on the processing

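Of 2684 values of the 10 genes under an alternative, 2653 kept their side of the threshold, 26 became calls, 5 were lost, and 0 calls changed direction. The sign changed without a call in either fit in 224 values, among them 13 of the 275 values of *Hrk*. *Hrk* stayed called in E18.5 cycling granule progenitors throughout, and in intermediate progenitors except at resolution 2.0, where 0 members were called. The number of members called moved as follows. With the littermate pairs as a block it was 3 in all sorted E14.5 cells, where 13% of all genes were called. It was 2 in cycling granule progenitors of E14.5 (1.59%), 2 in those of E18.5 (2.61%) and 2 in E14.5 unipolar brush cells (8.67%). It was 1 each in granule neurons of E14.5 (0.156%) and E18.5 (0.574%), migrating neurons-1 (1.94%), progenitors (1%) and ePN2 (0.139%). The block changed no other member call. By DESeq2 it was 1 in all sorted E14.5 cells (2.45% of all genes called), 1 in E14.5 cycling granule progenitors (0.175%) and 1 in progenitors (0.0943%). With no filter on low counts it was 1 in each of E14.5 cycling granule progenitors, granule neurons of both stages, migrating neurons-1, progenitors and ePN2, where 0.0424% to 0.479% of all genes were called. Leaving out 1 library gave 0 to 1 in migrating neurons-2 (1 without mutant 2, 0.0305%), progenitors (1 without control 1, 0.0146%) and ePN2 (1 without mutant 3, 0.00791%). Between control stages it gave 1 to 4 (1 without E18.5 control 1), where the main fit called 40.9% of all genes. Causes were not tested. With all UMIs in place of 5000 a cell, the *Hrk* share differed by 26.7 points in intermediate progenitors, 10.9 in progenitors, 9.56 in differentiated neurons, 6.92 in ePN1, where the sign changed, and 4.68 in ePN2.

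Counts over all genes were less stable. In all sorted E14.5 cells 0 were called, against 492 by DESeq2, 2 with no filter and 2612 with the block. In intermediate progenitors it was 12, against 18 by DESeq2, 91 with no filter, 185 with the block, 26 without pair 2 and 3 to 25 without 1 library. In E18.5 cycling granule progenitors it was 85, against 127 by DESeq2, 219 with no filter and 410 with the block. In all sorted E18.5 cells DESeq2 called 22 and edgeR 0. E14.5 pair 2 held few intermediate progenitors, 24 in its control and 23 in its mutant, and those of the control gave 1 *Hrk* UMI.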

Other observations

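Cells that the mitochondrial limit removed also carried the members. Barcodes with 5% to 10% mitochondrial UMIs were set against those under 5%, before doublets were removed. The P5 level of *Hrk* was 0.593 of that under 5% on average over the 2 libraries, and that of *Bbc3* was 0.616. *Pmaip1* and *Bcl2l11* were each 1.79 times as high in the 5% to 10% barcodes, *Mcl1* was 1.52 and *Bak1* 1.33 times as high, and *Bax* was nearly equal at 0.962. *Pmaip1*, *Bcl2l11*, *Mcl1* and *Bak1* were also the members with their highest P5 level in microglia, with *Bcl2l11* at 42.4 and 64.4 CPM there, and what the removed barcodes were was not tested. The embryonic libraries differed from this. At E14.5 *Pmaip1* was 0.450 of its level under 5% in controls and 0.428 in mutants, *Mcl1* 0.777 and 0.818, and *Bcl2l11* 0.836 and 0.948. At E18.5 *Pmaip1* was 0.862 and 0.734. *Hrk* was 1.08 in controls and 0.857 in mutants at E14.5, and 0.931 and 1.11 at E18.5.

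At E18.5 a small intermediate progenitor group passed the cell minimum in 2 control libraries and 1 mutant library and was not compared between genotypes. Its *Hrk* was 43.8 and 164 CPM in the controls, from 9 and 23 UMIs, and 48.2 CPM in the mutant, from 21 UMIs.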
